A study of Homo sapiens and Mus musculus with 25 samples.

Results

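The regions described here are the long stretches of the K562 genome that held no called H3K27me3. K562 is an established human line from a chronic myeloid leukaemia, with erythroid and megakaryocytic features. A gap was defined as at least 5 kb without a base in the merged peaks of the H3K27me3 library (antibody Cell Signaling Technology 9733), outside runs of N in hg38, on 20 autosomes (1 to 22 without 13 and 14). The members were thus chosen by the H3K27me3 peak positions alone. By this rule 4747 gaps were found among 34024 stretches outside the peaks, and the other 29277 were shorter than 5 kb. The gaps held 684.3 Mb, or 26.6% of the 2568 Mb of sequenced bases, while 33298 merged H3K27me3 peaks held 72.5%.

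All libraries came from K562 nuclei, with no treatment named, spiked with barcoded nucleosome standards, an internally calibrated chromatin immunoprecipitation known as ICeChIP. Against the gaps were set 17 peak lists for methylation of lysine 4 of histone H3 (H3K4), each from a different antibody: 5 against H3K4me1, 4 against H3K4me2 and 8 against H3K4me3. There was also 1 H3K9me3 list, and 3 lists that the authors corrected for antibody cross-reactivity. The labels name no separate cultures, so the antibodies stood as the samples and every p-value measures the spread between antibodies on a single cell line. Both the H3K27me3 and the H3K9me3 list came from 1 library. The files gave no read depth, so a base outside a list was a base without a call, not a base shown to lack the mark.

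H3K27me3 is laid down by the EZH enzymes of Polycomb repressive complex 2 and is known for broad domains over silent developmental genes. H3K4me3 marks the promoters of active and poised genes, H3K4me1 is typical of enhancers and promoter flanks, and H3K4me2 is found at both. A promoter that carries both H3K27me3 and H3K4me3 is called bivalent. Outside Polycomb domains, silent DNA can carry H3K9me3 or none of the marks profiled here.

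The 250 bases before 5 transcription start sites (TSSs) are given as examples, some deep inside gaps and others in an H3K27me3 peak. The sequences are from hg38, 5′ to 3′ on the gene's own strand, with every CG dinucleotide in capitals. A promoter here is the TSS of the canonical GENCODE 44 transcript with 1 kb on either side. CABIN1, a calcineurin-binding protein, is among the gap promoters with a peak in all 17 H3K4 lists that lay farthest from any H3K27me3 peak. DRD3, a dopamine receptor, and TIGIT, an inhibitory receptor of lymphocytes, are the 2 with a peak in 0 lists that lay farthest away. IFNGR1, a chain of the interferon gamma receptor, and OLIG3, a neural transcription factor, lie in the widest merged H3K27me3 peak.
CABIN1 (gap, 17 lists, chr22:24011054-24011303, plus strand): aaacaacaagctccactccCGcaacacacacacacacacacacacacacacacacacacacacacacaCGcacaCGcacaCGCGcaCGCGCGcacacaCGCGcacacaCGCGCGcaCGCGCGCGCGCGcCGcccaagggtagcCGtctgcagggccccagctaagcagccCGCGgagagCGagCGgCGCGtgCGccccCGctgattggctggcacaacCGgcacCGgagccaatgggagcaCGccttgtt
DRD3 (gap, 0 lists, chr3:114179053-114179302, minus strand): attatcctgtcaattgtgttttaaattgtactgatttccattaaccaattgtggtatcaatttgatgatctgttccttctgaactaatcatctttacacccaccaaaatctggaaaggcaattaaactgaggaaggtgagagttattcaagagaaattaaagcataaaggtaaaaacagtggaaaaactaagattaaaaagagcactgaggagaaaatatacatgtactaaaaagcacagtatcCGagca
TIGIT (gap, 0 lists, chr3:114293778-114294027, plus strand): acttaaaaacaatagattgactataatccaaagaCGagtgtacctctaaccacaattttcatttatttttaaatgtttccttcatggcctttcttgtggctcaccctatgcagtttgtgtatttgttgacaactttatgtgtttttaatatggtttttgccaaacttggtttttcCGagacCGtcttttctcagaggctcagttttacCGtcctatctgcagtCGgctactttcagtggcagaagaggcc
IFNGR1 (H3K27me3 peak, 17 lists, chr6:137219386-137219635, minus strand): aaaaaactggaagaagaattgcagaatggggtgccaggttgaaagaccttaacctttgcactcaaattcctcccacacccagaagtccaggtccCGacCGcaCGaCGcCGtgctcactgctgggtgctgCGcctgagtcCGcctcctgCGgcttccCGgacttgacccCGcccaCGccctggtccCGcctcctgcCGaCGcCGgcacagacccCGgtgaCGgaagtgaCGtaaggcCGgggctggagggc
OLIG3 (H3K27me3 peak, 9 lists, chr6:137494395-137494644, minus strand): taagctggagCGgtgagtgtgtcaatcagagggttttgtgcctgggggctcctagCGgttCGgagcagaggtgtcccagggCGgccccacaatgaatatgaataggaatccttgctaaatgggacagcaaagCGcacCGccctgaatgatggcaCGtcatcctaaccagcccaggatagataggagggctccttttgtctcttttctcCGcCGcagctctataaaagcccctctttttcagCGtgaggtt
CABIN1 lay 703895 bases inside its gap, and DRD3 and TIGIT 5495167 and 5380191 bases inside the gap that they share. CABIN1 has 32 CG dinucleotides in this window, DRD3 has 1 and TIGIT 5. These are single examples and no rule for their kinds: of the 661 gap promoters with a peak in all 17 lists, 106 were CpG-poor, and of the 876 with a peak in 0 lists, 309 were CpG-rich, by the limits given with the CpG values. Inside the H3K27me3 peak, IFNGR1 has 19 and a promoter peak in 17 lists, and OLIG3 has 10 and a promoter peak in 9.

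Most gaps were short, but most gap sequence was in a few very long ones. Gap length ran from 5003 to 11126944 bases with a median of 28422. The 2032 gaps of 5 to 20 kb held 2.84% of gap length, the 1509 of 20 to 100 kb held 10.7%, the 925 of 100 to 500 kb held 29.3%, and the 281 of 500 kb or more held 57.1%. At the threshold the 10 shortest gaps measured 5003 to 5013 bases, and the 10 longest stretches left out measured 4988 to 4997 bases. The longest gaps were also poorer in G and C, at 39.8% from 500 kb on against 42.7% at 20 to 100 kb and 41.2% in H3K27me3 peaks.

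The gaps were not gene deserts. Of 18172 protein-coding TSSs in scope, 4620 lay in a gap, 12921 in an H3K27me3 peak and 631 in a shorter stretch. The gap share of 25.4% follows from where the peaks lie and was used by the rule. Coding TSS density was 6.75 per Mb in gaps and 6.94 per Mb in H3K27me3 peaks. It was highest in gaps of 20 to 100 kb, at 11.6 per Mb, and lowest in those of 500 kb or more, at 4.90 per Mb. A coding TSS was present in 1176 of the 4747 gaps, and 3761 coding genes lay wholly inside a gap. Coding gene bodies took up 36.6% of gap bases and 49.2% of H3K27me3 peak bases. Of other gene classes, 25.2% of long noncoding RNA, 28.8% of pseudogene and 28.7% of microRNA TSSs were in gaps.

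**Figure D1:**
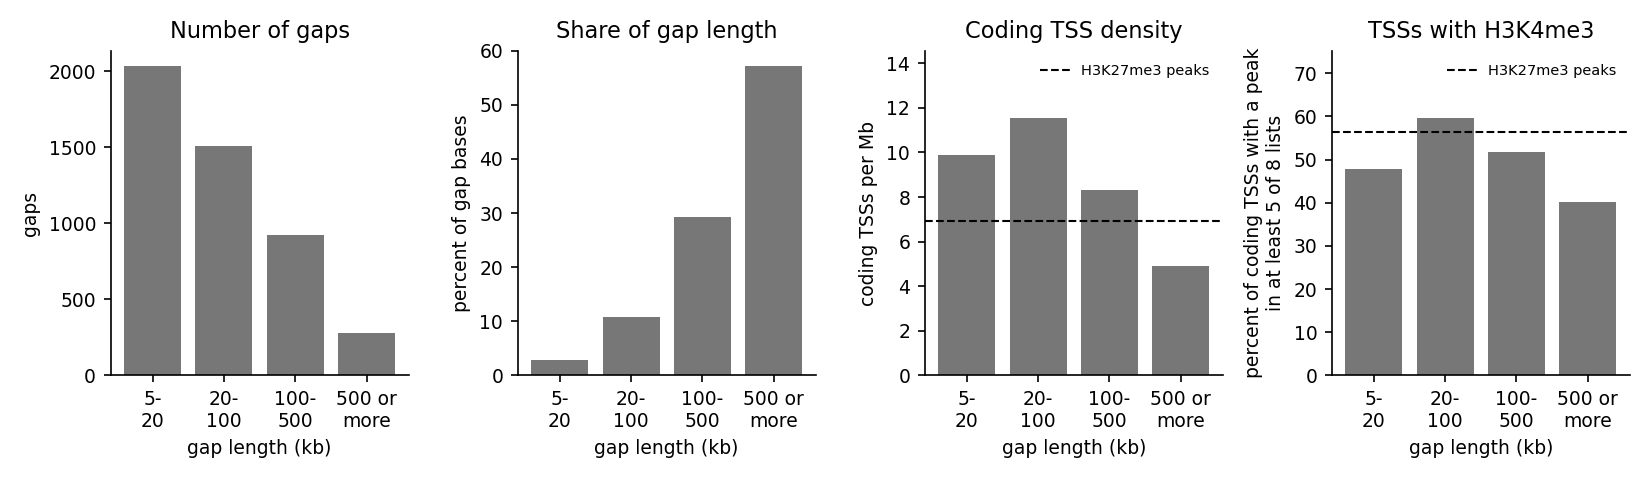
Gaps by length in kb: number of gaps, percent of gap bases, protein-coding TSSs per Mb, and percent of those TSSs whose promoter had a peak in at least 5 of the 8 H3K4me3 lists; dashed lines give the value in merged H3K27me3 peaks. The 281 gaps of 500 kb or more held 57.1% of gap length, with 4.90 coding TSSs per Mb and H3K4me3 at 40.2% of them, below the 56.4% of TSSs in peaks.

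Chromosomes differed greatly in how much of them was gap. The share ran from 1.19% on chromosome 8 and 1.62% on chromosome 7 to 49.0% on chromosome 3, 53.4% on chromosome 18 and 75.8% on chromosome 22. Gaps on chromosomes 7, 8 and 9 were almost without H3K4 calls: a peak of any of the 17 lists covered 0.683%, 1.84% and 0.0891% of their bases, against 28.1% over all gaps. The H3K9me3 list, which covered 97.0% of all sequenced bases, covered 33.5%, 19.8% and 11.3% of those same gaps. The longest gap of chromosome 9, chr9:25743709-26589603, held no base of any H3K4 list and no coding TSS. Copy number and mappability were not measured here, and their part in these values was not tested.

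Gaps without any H3K4 call were mostly on 3 chromosomes. In all, 1167 gaps, or 24.6%, had no base in any of the 17 lists. Chromosomes 7, 8 and 9, singled out after their values were seen, held 750 of these among 771 gaps, and the other 17 chromosomes held 417 among 3976, or 10.5%. By size class the share was 42.8% of gaps of 5 to 20 kb and 3.91% of those of 500 kb or more, and without chromosomes 7, 8 and 9 it was 17.5% and 2.53%. Of the merged H3K27me3 peaks, 29.6% had no H3K4 base, and 10651 of those 33298 peaks were shorter than 5 kb. Among peaks of at least 5 kb, the minimum length of a gap, the share was 5.24%. Counted by bases, 71.9% of gap bases were in none of the 17 lists, against 11.8% of H3K27me3 peak bases. A further restriction to bases also outside the H3K9me3 list left 10.0% of gap bases and 0.213% of peak bases. Of the 68.5 Mb so left in gaps, 11.8 Mb were on chromosome 9.

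Every H3K4 antibody covered less of the gaps than of the H3K27me3 peaks. For H3K4me1 the covered share of gap bases was 12.7% ± 2.58 (SD, n = 5 antibodies), against 52.5% ± 18.2 of peak bases. H3K4me2 covered 9.97% ± 7.48 of gaps and 36.6% ± 28.3 of peaks (n = 4). H3K4me3 covered 1.76% ± 2.01 of gaps, with a lowest, median and highest list of 0.397%, 0.956% and 6.29%, and 6.35% ± 12.5 of peaks (n = 8). All 17 lists lay on the same side, and for H3K4me1 the 2 sets of values did not overlap. The mean log2 ratio of gap to peak coverage over the 17 antibodies was -1.38 (exact two-sided sign-flip permutation test, adjusted p = 8.14e-05 over 16 tests, below 0 in 17 of 17).

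Among the 5 H3K4me1 antibodies, gap coverage was 12.5% for Abcam ab8895, 8.88% for Active Motif 39635, 14.8% for Cell Signaling Technologies 5326 BF, 15.4% for EpiGentek A-4031-050 and 11.9% for Thermo Fisher 710795. Active Motif 39635 was both the lowest in gaps and the highest in H3K27me3 peaks, at 81.7%. The 4 H3K4me2 antibodies gave 10.9% for Abcam ab7766, 20.0% for Cell Signaling Technologies 9725, 2.88% for EMD Millipore 05-1338 and 6.07% for Thermo Fisher 710796. Abcam ab8580, the H3K4me3 antibody with the widest list, covered 6.29% of gaps and 36.9% of peaks, and without it H3K4me3 covered 1.12% ± 0.893 of gaps and 1.98% ± 2.35 of peaks (n = 7).

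**Figure D2:**
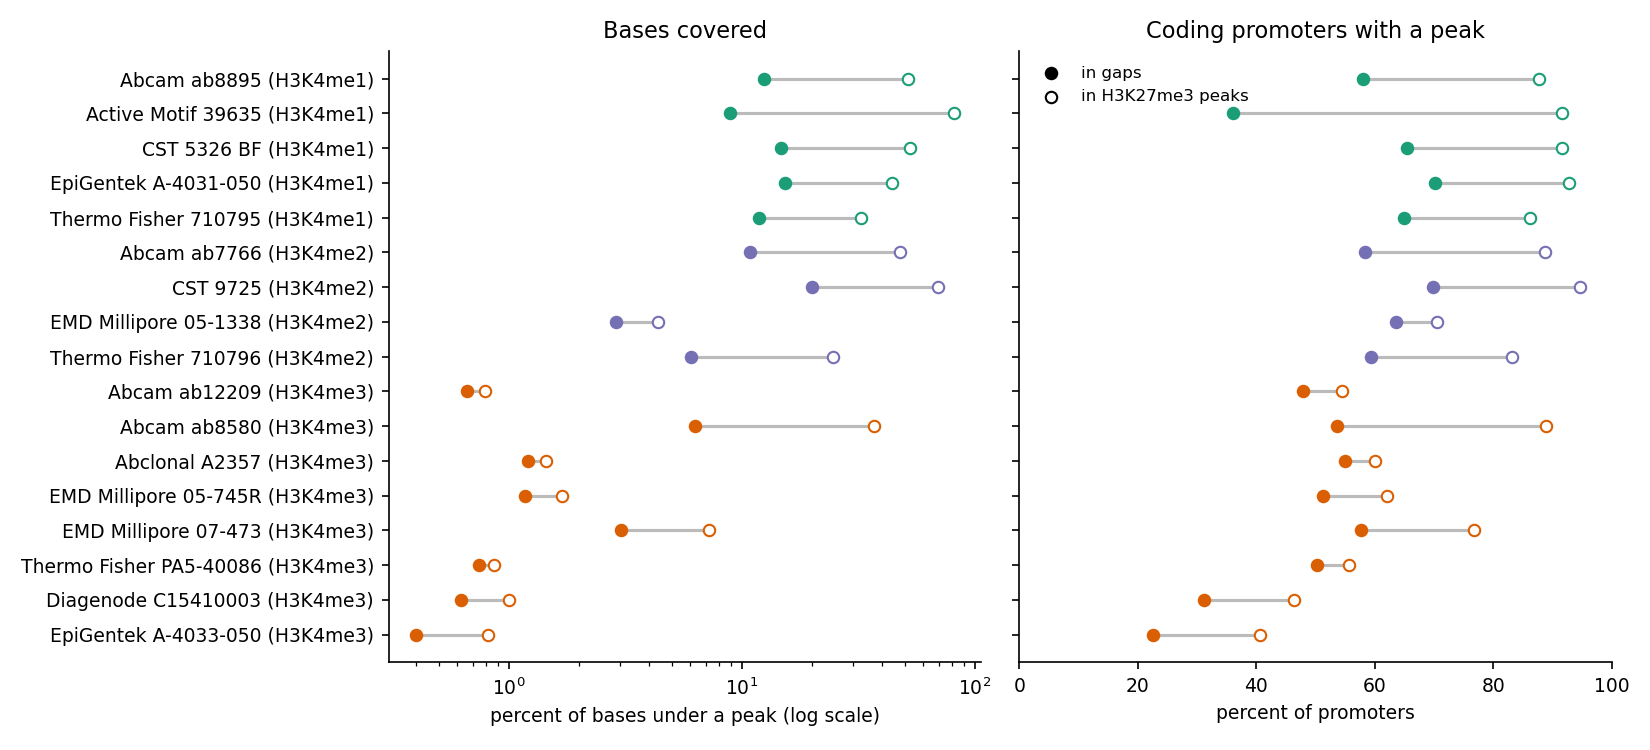
Percent of bases (left, log scale) and percent of protein-coding promoters (right) under a peak of each of the 17 H3K4 lists, in gaps (filled) and in merged H3K27me3 peaks (open); each row is 1 antibody and colours mark the target. All 17 filled points lie to the left of their open points in both panels, and the distance is widest for Active Motif 39635 and Abcam ab8580.

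The depletion was deeper for H3K4me1 than for H3K4me3, but this difference was fragile. The mean log2 ratios were -2.01 ± 0.709 for H3K4me1, -1.64 ± 0.707 for H3K4me2 and -0.852 ± 0.786 for H3K4me3. H3K4me1 was lower than H3K4me3 by a log2 difference of -1.16 (exact permutation test, adjusted p = 0.0414), and leaving out any 1 of 9 of the 13 antibodies raised that adjusted p to between 0.0581 and 0.115. The call remained only without EpiGentek A-4031-050, Thermo Fisher 710795, Abcam ab8580 or EMD Millipore 07-473. It was -1.16 (adjusted p = 0.0823, exact permutation test) among the lists with the AR16 prefix, and -0.796 (adjusted p = 0.257) among libraries of 8 amplification cycles. The other 4 libraries had 12 cycles, and none of them was against H3K4me1. Targets also differed in list length. The H3K4me1 lists held 685 to 1586 Mb, and the H3K4me3 lists 18.0 to 157 Mb apart from Abcam ab8580 with 758 Mb. The part of list length in the difference was not tested. The difference of H3K4me2 from H3K4me3 was -0.787 (exact permutation test, adjusted p = 0.207), and without Abcam ab8580 it was -1.03 with an adjusted p of 0.0269. H3K4me1 and H3K4me2 differed by -0.372 (exact permutation test, adjusted p = 0.571).

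The very long gaps carried much of the depletion. In gaps under 500 kb, a setting chosen after seeing the data, the mean log2 ratio over the 17 lists was -0.844, and 5 of the 8 H3K4me3 lists covered more of the gaps than of the H3K27me3 peaks. Within chromosomes, another setting chosen after seeing the data, the ratio averaged -2.53 and was below 0 for 17 of 17 lists. Each chromosome weighed alike in this average, however little of it was gap. On chromosomes 7, 8 and 9 H3K4me1 covered 0.122%, 0.414% and 0.0329% of gap bases, against 52.1%, 39.2% and 32.2% of peak bases. The average was not computed without them, so it is no measure of a typical chromosome. Mean coverage was lower in gaps than in peaks on 20 of 20 chromosomes for H3K4me1, on 20 for H3K4me2 and on 19 for H3K4me3. The exception was chromosome 19, where H3K4me3 lists covered 10.2% of gap bases and 9.81% of peak bases.

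The 3 lists corrected by the authors were also sparser in gaps. Corrected H3K4me1 covered 10.2% of gaps and 48.9% of peaks, corrected H3K4me2 2.07% and 15.8%, and corrected H3K4me3 0.151% and 1.02%. Each is a single list, so no test was made. H3K9me3 covered 89.9% of gap bases and 99.8% of peak bases, from 72.1% in gaps of 5 to 20 kb to 93.4% in those of 500 kb or more.

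Promoters in gaps carried H3K4 methylation less often than promoters in H3K27me3 peaks. For H3K4me1, 58.9% ± 13.5 of the 4620 gap promoters had a peak, against 90.0% ± 2.84 of the 12921 in peaks (n = 5 antibodies). For H3K4me2 the shares were 62.8% ± 5.17 and 84.3% ± 10.3 (n = 4), and for H3K4me3 46.2% ± 12.5 and 60.6% ± 15.7 (n = 8). Over the 17 antibodies the share was lower in gaps by a mean of -21.0 percentage points (exact two-sided sign-flip permutation test, adjusted p = 8.14e-05, lower in 17 of 17). The smallest difference was -5.07 points, for Abclonal A2357, and the widest was -55.5 points, for Active Motif 39635. In gaps under 500 kb the mean was -13.3 points with a smallest difference of -0.658, and averaged within chromosomes it was -31.8 points, both lower in 17 of 17. The latter weighed each chromosome alike, including chromosomes 8 and 9, where every gap promoter was in no H3K4 list.

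Between targets the promoter difference was -16.6 points wider for H3K4me1 than for H3K4me3 (exact permutation test, adjusted p = 0.0414). Leaving out any 1 of the same 9 antibodies as above ended this call, with an adjusted p of 0.0581 to 0.123. It was -17.4 points (adjusted p = 0.0823, exact permutation test) with the AR16 prefix alone and -11.4 points (adjusted p = 0.257) with 8 cycles alone. H3K4me1 and H3K4me2 differed by -9.58 points (adjusted p = 0.508), and H3K4me2 and H3K4me3 by -7.06 points (adjusted p = 0.364), both by the exact permutation test.

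By promoter, the gap set was more often in no H3K4 list and less often in all 17 than the set in peaks, and most gap promoters lay between. A promoter was counted as carrying H3K4me3 where at least 5 of the 8 lists had a peak, which held for 54.4% of all coding promoters. In gaps it held for 2232, or 48.3%, and in H3K27me3 peaks for 7291, or 56.4%. At the other end, 876 gap promoters, or 19.0%, had a peak in 0 of the 17 lists, against 194, or 1.50%, in peaks and 6.1% of all coding promoters. A peak in all 17 lists was found at 14.3% of gap promoters and 36.8% of those in peaks, against 30.5% of all. Intermediate promoters, with 1 to 4 H3K4me3 lists, numbered 935 of 4620 in gaps and 4711 of 12921 in peaks. All 8 H3K4me3 lists had a peak at 19.7% of gap promoters and 38.5% of those in peaks, and 0 of 8 at 31.5% and 7.11%.

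Most gap TSSs, 4359 of 4620, lay under the H3K9me3 list, and 637 of these, or 14.6%, were in no H3K4 list. Of the 261 outside it, 239 were in no H3K4 list, or 91.6%, so calls of both kinds were missing there together. Without chromosomes 7, 8 and 9 those shares were 14.5% and 88.8%. Promoters in no H3K4 list made up 37 of 37 gap promoters on chromosome 9, 20 of 20 on chromosome 8 and 14 of 15 on chromosome 7. On chromosome 19 they made up 15 of 680, or 2.21%. That chromosome differed from most: 68.5% of its gap promoters carried H3K4me3, against 54.2% of those in peaks. Chromosome 11 was the other exception, with 53.7% and 49.0%, and on 18 of 20 chromosomes the gap share was the lower.

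**Figure D3:**
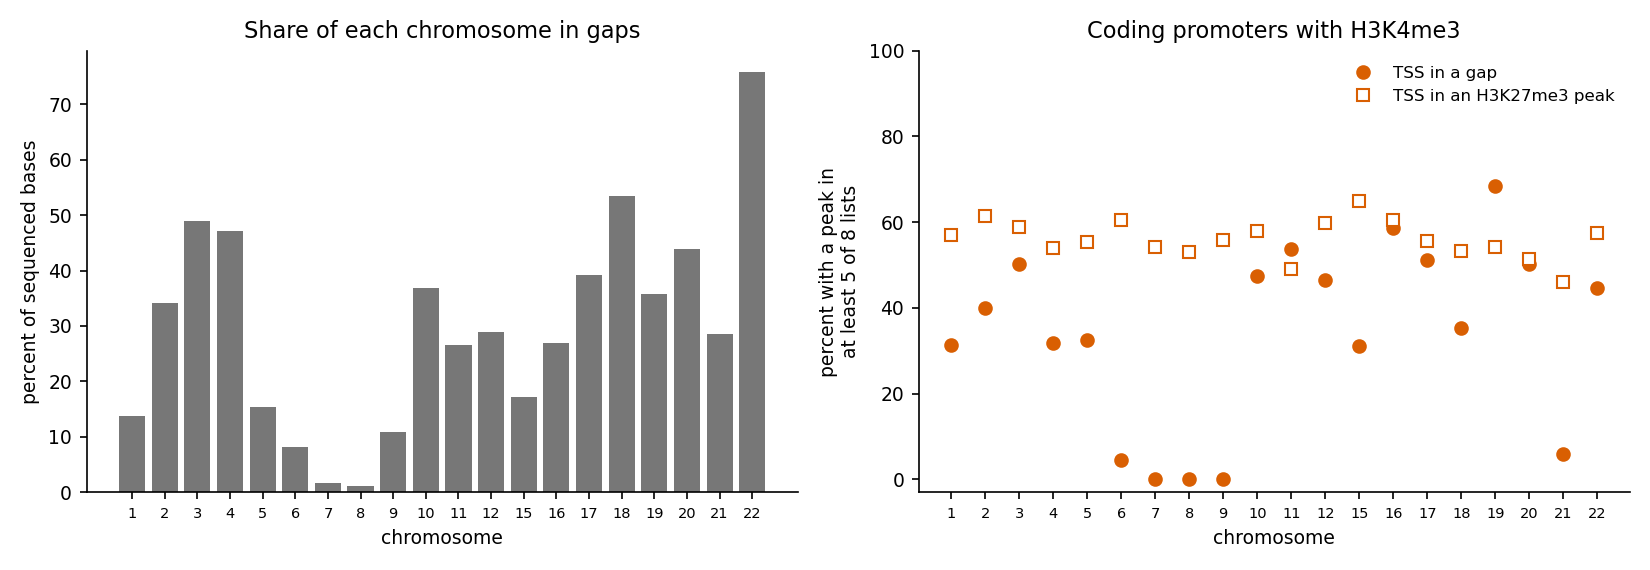
Left, percent of sequenced bases of each chromosome in gaps; right, percent of protein-coding promoters with a peak in at least 5 of the 8 H3K4me3 lists, for TSSs in gaps (filled) and in H3K27me3 peaks (open). The gap share is 75.8% on chromosome 22 and 1.19% on chromosome 8, and the filled point lies above the open one on chromosomes 11 and 19 only.

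CpG content was close in both places. CpG-rich promoters, with an observed over expected CG ratio of at least 0.6 and at least 50% G and C in the 250 bases before the TSS, made up 62.4% of gap promoters and 61.7% of those in H3K27me3 peaks. Among promoters carrying H3K4me3 they made up 84.1% in gaps and 84.4% in peaks. At the CpG-poor promoters, 1737 in gaps and 4952 in peaks, H3K4me1 lists had a peak at 43.3% ± 10.9 in gaps and 85.5% ± 4.71 in peaks (n = 5 antibodies). H3K4me2 lists had one at 42.8% ± 7.33 and 73.4% ± 22.1 (n = 4), and H3K4me3 lists at 23.3% ± 9.47 and 34.7% ± 23.6 (n = 8). At CpG-rich promoters those shares were 68.3% ± 15.1 and 92.8% ± 1.87 for H3K4me1, 74.8% ± 6.03 and 91.0% ± 3.41 for H3K4me2, and 60.0% ± 15.6 and 76.7% ± 12.8 for H3K4me3. The means of the 2 places were thus further apart at CpG-poor promoters for H3K4me1 and H3K4me2 and at CpG-rich ones for H3K4me3, which was not tested. A peak in 0 of 17 lists was found at 32.6% of CpG-poor and 10.7% of CpG-rich gap promoters.

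H3K4 coverage varied with gap length. Gaps of 20 to 100 kb had the highest mean coverage for each target: H3K4me1 23.9% ± 4.15, H3K4me2 16.7% ± 11.3 and H3K4me3 3.85% ± 4.93. Gaps of 500 kb or more had the lowest, at 8.90% ± 4.30, 7.64% ± 6.28 and 1.03% ± 1.04. Chromosomes 7, 8 and 9, with almost no H3K4 calls in gaps, entered these means. A peak of any of the 17 lists covered 30.7% of bases in gaps of 5 to 20 kb and 44.3% at 20 to 100 kb. Without those chromosomes the values were 43.7% and 46.6%, with 22.5% at 500 kb or more. The share of promoters carrying H3K4me3 was likewise highest at 20 to 100 kb, with 59.7% of 846, and lowest at 500 kb or more, with 40.2% of 1916. Only 2.56% of promoters in the longest class had a peak in all 17 lists, against 29.2% at 20 to 100 kb.

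Gaps of at least 100 kb were set against those of 5 to 20 kb. The mean log2 ratio of coverage was -0.597 over the 17 antibodies (exact two-sided sign-flip permutation test, adjusted p = 0.000366, below 0 in 15 of 17). EpiGentek A-4031-050 and Thermo Fisher 710795, both against H3K4me1, were above 0. H3K4me3 was lower in long gaps than H3K4me2 by a log2 difference of 0.523 (exact permutation test, adjusted p = 0.0108), and by 0.505 among 8-cycle libraries with an adjusted p of 0.0952. Averaged within chromosomes it was 0.188 with an adjusted p of 0.496. H3K4me1 exceeded H3K4me3 by 0.396 (exact permutation test, adjusted p = 0.288), and without Active Motif 39635 by 0.747 with an adjusted p of 0.00462. The overall call depended on the setting. In gaps under 500 kb the mean was -0.0341 with an adjusted p of 0.669, and with 5 to 10 kb as the short class it was -0.212 with an adjusted p of 0.209. Without chromosome 9, a planned setting, the mean was -0.792. Settings chosen after seeing the data also moved it the other way. It was -1.71 averaged within chromosomes, each weighted alike, and -0.913 on bases under the H3K9me3 list. Both were below 0 in 17 of 17 with an adjusted p of 6.1e-05 (exact sign-flip test).

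Pooled over gaps, coverage was higher in the outer 5 kb than in interiors. Very long gaps, where coverage was lowest, make up more of the pooled interiors than of the pooled edges. Their part in the ratio was not tested. In gaps of at least 20 kb the outer 5 kb at each end were compared with the rest, and the mean log2 ratio was 0.855 (exact two-sided sign-flip permutation test, adjusted p = 8.14e-05, above 0 in 17 of 17). H3K4me3 covered 3.42% ± 3.68 of edges and 1.67% ± 1.90 of interiors (n = 8), and H3K4me1 18.6% ± 2.62 and 12.3% ± 2.87 (n = 5). The edge ratio was higher for H3K4me3 than for H3K4me2, a log2 difference of -0.572 for H3K4me2 (exact permutation test, adjusted p = 0.00646), and -0.543 among 8-cycle libraries with an adjusted p of 0.0571. H3K4me1 differed from H3K4me3 by -0.527 (exact permutation test, adjusted p = 0.0414), a call that was lost on leaving out any 1 of 11 of the 13 antibodies, all but Active Motif 39635 and EMD Millipore 07-473, with an adjusted p of 0.0566 to 0.0862. It was -0.495 (adjusted p = 0.0924, exact permutation test) with the AR16 prefix alone and -0.465 (adjusted p = 0.236) with 8 cycles alone. In gaps under 500 kb the mean over 17 lists was 0.344. By target it was 0.130 ± 0.176 for H3K4me1, 0.182 ± 0.146 for H3K4me2 and 0.558 ± 0.176 for H3K4me3. The pooled ratio is no profile along a gap. Over the edges described next, H3K4me1 and H3K4me2 coverage was lower in the first kb than deeper inside.

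At finer scale, coding TSS density was highest at the boundary itself, though most gap edges were not within 5 kb of a coding TSS. Over 2036 edges of gaps of at least 40 kb beside peaks of at least 20 kb, coding TSS density was 46.2 per Mb in the first kb inside the gap and 28.0 per Mb in the last kb of the peak. It was 8.35 per Mb in the second kb inside. H3K4me3, without Abcam ab8580, covered 4.50% ± 2.23 of that first kb and 2.16% ± 1.46 at 19 to 20 kb inside (n = 7). H3K4me1 had its low there instead, with 18.6% ± 3.07 in the first kb, 24.9% ± 2.41 at 5 to 6 kb inside and 31.4% ± 5.35 at 4 to 5 kb inside the peak (n = 5). H3K4me2 covered 15.6% ± 8.59 of the first kb and 19.1% ± 12.1 at 5 to 6 kb inside (n = 4). Of all 9494 gap edges, 8.26% lay within 5 kb of a coding TSS, as did 6.28% of all sequenced bases.

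**Figure D4:**
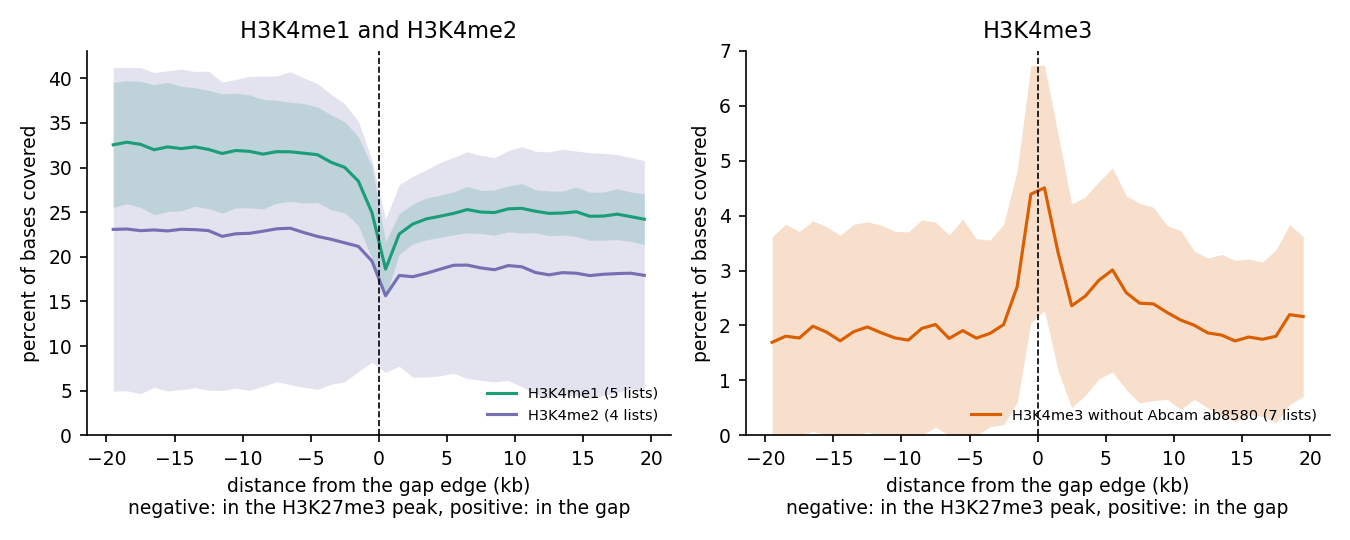
Percent of bases covered in 1 kb steps across 2036 gap edges (x axis in kb, negative in the H3K27me3 peak and positive in the gap); lines are means over antibodies and bands 1 SD, cut at 0. H3K4me1 (5 lists) dips to 18.6% in the first kb inside the gap, where H3K4me3 (7 lists, without Abcam ab8580) stands at 4.50%.

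Called peaks that fell in gaps had higher values in most lists. The value is the authors' own for each peak, and was present in 14 H3K4 lists. Its median was higher in gaps than in H3K27me3 peaks in 12 of 14 lists, in 5 of 5 for H3K4me1, 4 of 4 for H3K4me2 and 3 of 5 for H3K4me3. The 10th percentile was higher in gaps in all 14, so the low end of the called values also lay higher there. The medians compare called peaks only, and whether calling was equally strict in both places was not tested. For Abcam ab8895 the medians were 13.4 and 10.0, and for EMD Millipore 05-745R 19.7 and 11.5. Abcam ab12209 went the other way, with 24.8 and 26.1, as did Thermo Fisher PA5-40086, with 26.4 and 27.7.

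The longest gap, chr3:108547275-119674218, spans 11.1 Mb and holds 60 coding TSSs, 22 of them, or 36.7%, with H3K4me3 and 16 in no H3K4 list. H3K4me1 covered 5.51% ± 3.61 of it (n = 5). At its middle, QTRT2, a subunit of a tRNA-modifying enzyme, and CCDC191 each had a promoter peak in 14 lists, while DRD3 and TIGIT had none. CIP2A, an inhibitor of the phosphatase PP2A, and DZIP3, a ubiquitin ligase, start 42164 and 42448 bases inside and had 16 lists each.

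The next longest gaps differed in the share of their promoters that was marked. In chr3:81382195-90549738, 7 of 12 coding TSSs, or 58.3%, carried H3K4me3 and 1 was in no list. They included CHMP2B, of the ESCRT membrane machinery, with 11 lists, and POU1F1, a pituitary transcription factor, with 3. In chr12:13324666-21512766, 12 of 39 coding TSSs, or 30.8%, carried H3K4me3 and 19 were in no list, among them LMO3 and PIK3C2G, and WBP11, a splicing factor, had 14. In chr18:63198669-71197664, 4 of 24 carried H3K4me3 and 13 were in no list, including the cadherins CDH7 and CDH19. The gap chr3:73332977-81381472 had 6 coding TSSs in 8.05 Mb, of which only ROBO2, an axon guidance receptor, carried H3K4me3, with 6 of 8 lists and 0 of 5 for H3K4me1. Among its other TSSs, ZNF717 and FRG2C, have near-identical copies elsewhere in the genome, so reads may be lost or shared there.

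Some gaps held many coding promoters, though not always a larger marked share than the 48.3% of all gap promoters. The gap with the most coding TSSs, chr3:48414854-50675303, holds 82 in 2.26 Mb, and 54, or 65.9%, carried H3K4me3 while 1 was in no list. H3K4me1 covered 42.1% ± 23.6 of it, and H3K4me3 5.70% ± 3.84. WDR6, QARS1, the glutaminyl-tRNA synthetase, and RHOA, a small GTPase, each had 16 lists with 8 of 8 for H3K4me3. The gap chr17:7091853-7696585 holds 51 coding TSSs, 23 or 45.1% with H3K4me3. DVL2, a transducer of Wnt signals, had 14 lists there, with 6 of 8 for H3K4me3. In chr22:37019452-38794048, 23 of 48 coding promoters, or 47.9%, carried H3K4me3, POLR2F, an RNA polymerase subunit, among them with 16 lists.

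The longest genes wholly inside gaps were MACROD2, CCSER1 and ROBO2, at 2058, 1478 and 1743 kb. MACROD2 and CCSER1 each had a promoter peak in 2 of 17 lists, and H3K4me1 covered 2.60% ± 1.76 and 0.801% ± 0.512 of their gaps.

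Gene lists chosen for the cell type showed which genes lay in gaps. Over all coding genes, a gap promoter had a peak in a median of 10 of the 17 lists and a promoter in an H3K27me3 peak in 15. H3K4me3 was carried by 48.3% of gap promoters and 56.4% of those in peaks. The number of each list's TSSs in gaps, set by the rule itself, stands beside 25.4% of all coding TSSs, and nothing is read from it. Of 12 marker genes of K562, 6 had their TSS in a gap, among them GATA2, KLF1, EPOR, HBG1 and HBG2. In 5 of these 6, and in all of the 6 in H3K27me3 peaks (TAL1, LMO2, NFE2, GFI1B, TFRC and HBE1), the promoter carried H3K4me3. Of 9 genes of other lineages, 2 were in gaps, the neural genes GRIN2B and SNAP25, with 0 and 1 of 17 lists. CD3D, a T cell gene in an H3K27me3 peak, had 16.

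Erythroid genes were split evenly, 16 of 32 in gaps and 16 in peaks. H3K4me3 was carried by 12 of the 16 in gaps and 13 of the 16 in peaks. KLF1, the erythroid Krüppel-like factor, had 17 of 17 lists, 230030 bases from the nearest H3K27me3 peak, and BLVRB, of haem metabolism, also had 17. HBG1 and HBG2, the fetal globins that K562 is known to express, shared a gap of 5392 bases and had 17 lists each. Their TSSs lay 389 and 80 bases from an H3K27me3 peak, so their promoter windows reached into the peak. HBA1 had 16 and HBA2 4. The globin genes have near-identical copies, so their counts are uncertain.

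Genes of general upkeep were mostly marked in gaps, but housekeeping and cell cycle genes less often than in H3K27me3 peaks. All 10 of the gap members among 39 cytosolic ribosomal protein genes carried H3K4me3, as did 28 of 29 in peaks. H3K4me3 lists had a peak at 91.2% ± 6.41 of the gap members and 94.8% ± 5.21 of those in peaks (n = 8 antibodies). RPLP2 had 17 lists and RPL3, the lowest, 11. Of 9 housekeeping genes in gaps 6 carried H3K4me3, against 16 of 16 in peaks. Of 6 cell cycle genes in gaps 4 carried it, against 18 of 18 in peaks. EEF2, the elongation factor, had 17 lists. GAPDH, a glycolytic enzyme, had 4 of 5 H3K4me1, 4 of 4 H3K4me2 and 0 of 8 H3K4me3 lists within 1 kb of its TSS. It is a gene that most cells are known to express, so a missing H3K4me3 call is not read as a missing mark, here or at other genes, and expression was not measured. MCM5, a subunit of the replicative helicase, had the same 4, 4 and 0, whereas AURKB, a mitotic kinase, had 7 of 8 H3K4me3 lists.

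Among genes of the Polycomb system itself, 8 of 25 had their TSS in a gap: AEBP2, PCGF2, PCGF3, PCGF5, PCGF6, CBX2, CBX7 and CBX8. Of these 6 carried H3K4me3, against 16 of the 17 in H3K27me3 peaks. The 6 ran from PCGF2, a subunit of Polycomb repressive complex 1, with 17 lists to AEBP2, an accessory subunit of complex 2, with 8.

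The HOX genes, classic Polycomb targets that set position along the body axis, showed the opposite of the usual order. Of 39 in scope, 31 were in H3K27me3 peaks and 7 in gaps, and those 7 were neighbours in a single gap of 78.1 kb on chromosome 17, HOXB3 to HOXB9. HOXB4, HOXB6, HOXB7 and HOXB9 had 17 of 17 lists, HOXB3 and HOXB5 had 11, and HOXB8 had 7. The median was 17 lists in the gap and 9 in peaks. H3K4me3 lists had a peak at 66.1% ± 13.1 of the gap members and 31.0% ± 32.4 of the others (n = 8). HOXD1, in an H3K27me3 peak of 720 kb, had 12 lists with 3 of 8 for H3K4me3.

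Other developmental transcription factors in gaps had few or no H3K4 calls. Of 40 in scope 5 were in gaps, PAX3, SOX9, FOXA2, NKX2-2 and EMX2, with 0, 1, 0, 0 and 1 of 17 lists. The 35 in H3K27me3 peaks had a median of 9 lists, and 7 of them carried H3K4me3. TBX3, in the widest of those peaks, had 12.

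Genes of other lineages differed by list. Neural genes in gaps, 7 of 20, had a median of 1 list against 8 for the 11 in peaks, with GRIN2B, GRIA2 and SYT1 at 0. SLC17A7, a vesicular glutamate transporter, was the exception with 16. Of myeloid genes 5 of 15 were in gaps, and 1 of them, SPI1, the transcription factor PU.1, carried H3K4me3 and had 16 lists. ELANE, AZU1 and PRTN3, granule proteases and a related protein in 1 gap on chromosome 19, had 5 of 5 H3K4me1 lists each. FCGR3A, which has a near-identical copy, had 0. Gaps held 2 of 21 lymphoid, 2 of 18 liver and 0 of 25 keratin genes.

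Clustered gene families lay partly in gaps and partly in peaks. Of 388 olfactory receptor genes 92 were in gaps, and 61 of these had 0 of 17 lists, against 8 of the 294 in H3K27me3 peaks. H3K4me1 lists had a peak at 8.26% ± 2.38 of the gap promoters and 73.5% ± 13.1 of those in peaks (n = 5), while H3K4me3 lists had one at 1.49% ± 3.13 and 13.0% ± 26.8 (n = 8). OR2W3, the gap member with the most, had 9 lists. Chromosome 11 held 43 of the 92.

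Clustered protocadherins, neuronal adhesion proteins, had 12 of 53 in gaps with a median of 4 lists, against 10 in peaks. Replication-dependent and linker histone genes had 12 of 74 in gaps, and 3 carried H3K4me3 (H4C14, H2AC19 and H1-10), against 46 of 60 in peaks. Several of these genes, and many olfactory receptors, have close copies. Zinc finger genes of chromosome 19 were marked in both places: 39 of 56 in gaps and 157 of 191 in peaks carried H3K4me3, ZNF254 with 17 lists and ZNF729 with 0 at the ends of the gap range.

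**Figure D5:**
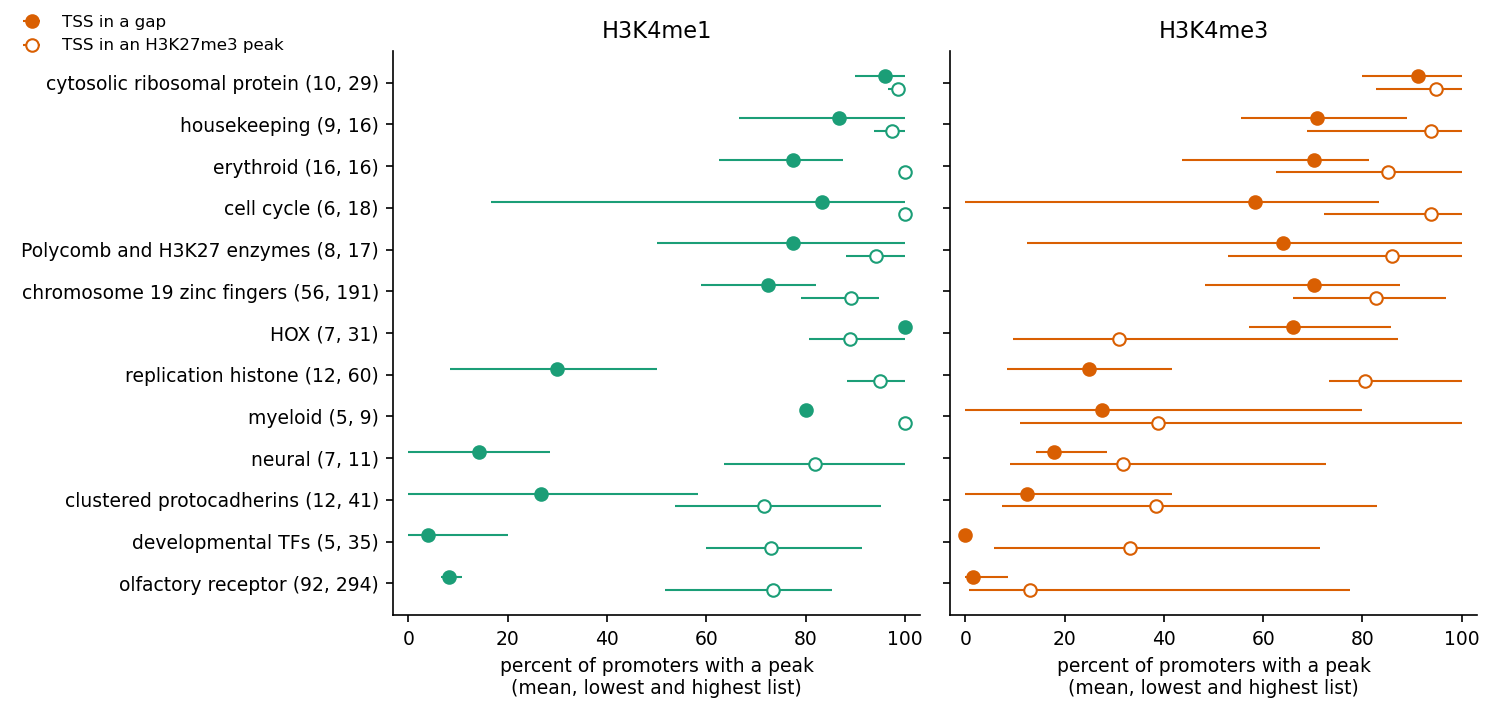
Percent of promoters of each gene list with an H3K4me1 (left) or H3K4me3 (right) peak, for TSSs in gaps (filled) and in H3K27me3 peaks (open); points are means over 5 and 8 antibodies, lines run from the lowest to the highest list, and brackets give the number of genes in gaps and in peaks. Olfactory receptors stand at 8.26% in gaps and 73.5% in peaks for H3K4me1, and HOX is the list whose H3K4me3 mean is higher in gaps, 66.1% against 31.0%.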

How the data were processed

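Peak lists on hg38 were used as deposited. Per the submitters' processing notes, the authors used Bowtie2, SAMtools, bedtools and MACS2, and versions, calling settings and the filter for confident peaks are not stated in those notes. Each list belongs to 1 antibody and was not pooled. The fourth column, where deposited, was read as the authors' signal per peak on the scale of the spiked standards, though no header names it; the H3K27me3, H3K9me3, Abcam ab8580, Diagenode C15410003 and EpiGentek A-4033-050 lists gave positions only. No peak of the 5004232 read lay beyond a chromosome end of the reference. Total read counts were not used here, so depth is unknown and no counting interval was computed. Libraries had 8 or 12 amplification cycles, and 15 H3K4 lists bear the experiment prefix AR16 and 2 AR17. The 2 inputs and 4 mouse samples were not analysed here.

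Peaks were merged where they overlapped or touched, and gaps, covered bases and promoter overlaps (1 base) were computed in Python 3.11.15 with NumPy 2.4.6 and GENCODE 44, and drawn with matplotlib 3.10.9. For each antibody 4 measures were taken: log2 coverage of gaps over peaks, promoter share in gaps minus peaks, log2 coverage of long over short gaps, and log2 coverage of edges over interiors. Means over 17 antibodies were tested with exact sign-flip tests, and targets with exact permutation tests, two-sided, Benjamini-Hochberg adjusted over 16 tests at 0.05, and 9 of 16 passed. The smallest unadjusted p was 1.53e-05 for 17 antibodies, the least the sign-flip test can give, and the permutation tests could reach 0.00794, 0.000777 and 0.00202. The scripts were tested on simulated data. Alternatives were the gap minimum, merging, promoter window and TSS, peak value, experiment prefix, cycles, chromosome 9 and each antibody left out.

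The regions and gene lists were chosen with earlier results of these data known. Named genes were, per list, the gap member in the most and the fewest H3K4 lists and the member in the widest H3K27me3 peak, then genes of the 5 longest gaps, the 5 richest in TSSs, and the 3 longest genes in gaps. HOXB3 to HOXB9, BLVRB, HBA1, HBA2, FOXA2, NKX2-2, EMX2, GRIA2, SYT1, ELANE, AZU1, PRTN3, H4C14, H1-10 and the other Polycomb genes were named to complete counts after their values were seen. Some genes and 1 sequence that this rule names are not reported here. The CpG-rich limits were set after the other tests were chosen.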

Additional observations from a re-analysis of the deposited data

Results flagged for a closer look

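Among 12 sets of antibody values, 5 antibody values stood apart from the rest of their group by Dixon's test, which chance gives in about 1 in 20 sets. Abcam ab8580 did so among 8 H3K4me3 antibodies, with a log2 gap to peak coverage of -2.55 and a promoter difference of -35.2 points. Active Motif 39635 did so among 5 H3K4me1 antibodies, with a promoter difference of -55.5 points, a log2 long to short gap coverage of -1.85 and a log2 edge to interior coverage of 1.46. These are the lists with the widest cover of H3K27me3 peaks within their targets, at 36.9% and 81.7%, and the part of that in the result was not tested.

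There were 5 differences between targets that passed the exact permutation test with adjustment over 16 tests. For H3K4me1 minus H3K4me3 these were -1.16 in log2 gap to peak coverage, -16.6 points at promoters and -0.527 in log2 edge to interior coverage. For H3K4me2 minus H3K4me3 they were 0.523 in log2 long to short gap coverage and -0.572 in log2 edge to interior coverage.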

How the results depend on the processing

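The calls over 17 antibodies on coverage, promoters and edges held under every alternative run. The call on long against short gaps ended with short gaps of 5 to 10 kb (-0.212) and with gaps under 500 kb only (-0.0341). The gap minimum moved the number of gaps to 7388 at 2 kb and 2715 at 20 kb, while their length stayed between 664.9 and 692.8 Mb.

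For H3K4me1 minus H3K4me3, lists with the AR16 prefix alone ended the calls on coverage (-1.16), promoters (-17.4) and edges (-0.495), and 8-cycle libraries alone ended them too (-0.796, -11.4 and -0.465). Peaks at or above the list median ended the edge call (-0.543). For H3K4me2 minus H3K4me3, 8-cycle libraries alone ended the calls on long against short gaps (0.505) and edges (-0.543), and averaging within chromosomes ended the former (0.188). For H3K4me1 minus H3K4me2, never called, the sign changed in gaps under 500 kb for long against short gaps (0.00256) and edges (-0.0525), and with an edge of 2.5 kb (-0.0336). The cause was not tested, beyond the fewer antibodies in the prefix and cycle settings.

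Leaving out each antibody in turn, H3K4me1 minus H3K4me3 ran from -1.40 to -0.861 for coverage, -19.6 to -10.5 for promoters, 0.264 to 0.747 for long against short gaps and -0.739 to -0.452 for edges. H3K4me2 minus H3K4me3 ran from -1.13 to -0.621 for coverage. H3K4me1 minus H3K4me2 ran from -0.259 to 0.225 for long against short gaps and from -0.166 to 0.120 for edges.

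No paired analysis was possible because replicate numbers only count antibodies within a target. The alternative of leaving out soft-masked bases was not run, since the reference is in upper case throughout. With a gap minimum of 20 kb the class of short gaps is empty, so that comparison has no value. The averages of coverage within chromosomes used those with at least 1 Mb of both regions and, for each list, a value in both, so the chromosomes differ by list. Each chromosome used had the same weight, whatever its gap length. Gaps rest on 1 H3K27me3 library, and unknown depth limits what the absence of a peak can show.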
